A study of Homo sapiens with 30 samples.

Results

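The 10 genes described here, SRSF1 to SRSF7 without a gap and SRSF9, SRSF10 and SRSF11, encode SR splicing factors. They were taken by symbol, as 10 of the 27630 genes in the RNA count tables, and were chosen with earlier results of these data known. SRSF8 and SRSF12, whose symbols belong to the same series, were counted among the other RS-domain genes. RNA came from HEK293FT, a fast-growing derivative of the human embryonic kidney line HEK293. Each of 4 groups held 2 libraries: RNA of the nuclear fraction, RNA of the cytosolic fraction, and RNA recovered next to the nuclear lamina either natively or after fixation with paraformaldehyde (PFA). In all 4 groups the cells were asynchronous and carried a transfected APEX2 lamin-b1 construct, delivered with Lipofectamine 2000. APEX2 is an engineered peroxidase that tags molecules close to itself, so a fusion to lamin B1 marks the inner rim of the nucleus. The labels name neither the promoter of the construct nor a clone. No library from untransfected or untagged cells was used here, so the nuclear and cytosolic fractions are the background for both lamina preparations. The labels call the libraries replicates without naming separate cultures, and p-values then measure only the spread between these libraries, which may be technical.

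SR proteins pair RNA recognition motifs with a tail rich in arginine and serine, the RS domain, through which they contact each other and the splicing machinery. They bind exonic enhancers, help define exons, and gather in nuclear speckles between rounds of splicing. The kinases SRPK and CLK phosphorylate the tail, the receptor transportin-SR carries the proteins into the nucleus, and some members shuttle to the cytoplasm and hand mRNA to the export receptor NXF1. Many SR genes limit their own output by splicing a poison exon or a terminal intron into their transcripts, which leads to decay or to retention in the nucleus. The counts are of RNA, so every level below is one of the transcript and not of the protein.

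Library totals ran from 2321291 to 8557777 counts, and the 10 genes took between 0.151% and 0.302% of them. A single SR gene had between 148 and 6314 counts in a library, so all 10 passed the filter on low counts and were tested. The nuclear RNAs MALAT1 and NEAT1 summed to between 12820 and 21620 CPM (the deposited count divided by library size after TMM scaling, which corrects for composition) in the nuclear fraction and to between 951 and 1276 in the cytosolic fraction. Native lamina libraries had sums of 6206 and 13380. The PFA libraries stood apart from each other, with 701.8 in replicate 1 and 3824 in replicate 2. Across genes, log2 CPM correlated at 0.911 between the PFA replicates and at 0.960 to 0.968 within the other groups, and PFA replicate 1 correlated at 0.957 with cytosolic replicate 1. The cytosolic set GAPDH, ACTB, EEF1A1 and RPLP0 summed to between 899 and 1477 CPM in nuclear libraries, 5050 and 8548 in cytosolic, 2136 and 2184 in native and 1729 and 2890 in PFA libraries. The part of either marker set in the SR gene differences was not tested. The HEK293 markers VIM, NEFL and NEFM were present in all 8 libraries and PAX2 was low, at 6.25 CPM or less. Of the other lines in the series, the K562 set summed to between 1.56 and 2.06 CPM in nuclear, 0.134 and 0.423 in cytosolic, 0.832 and 1.03 in native and 0.370 and 2.21 in PFA libraries, and the HCT116 set to between 2.70 and 4.41 over all 8. HBG1 and HBG2 had no count in any library, HBZ and CDX1 none above 3 counts, and GATA1 reached 1.84 CPM, while EPCAM was above 3 counts in all 8, at 1.20 to 2.96 CPM.

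The 10 gene models lie on 7 chromosomes of hg19 and differ in how much of the gene is exon. SRSF1 (chromosome 17, 56078280 to 56084707) and SRSF2 (chromosome 17, 74730197 to 74733493) are compact, with 87.8% and 89.9% of the span counted as exon. SRSF6 (chromosome 20, 42086504 to 42092244) follows with 69.9%. SRSF3 (chromosome 6, 36562090 to 36572244), SRSF5 (chromosome 14, 70233804 to 70238722) and SRSF7 (chromosome 2, 38970741 to 38978636) lie between 31.5% and 35.5%. The spread-out genes are SRSF9 (chromosome 12, 120899471 to 120907558) with 14.4%, SRSF11 (chromosome 1, 70671365 to 70718732) with 11.2% and SRSF4 (chromosome 1, 29474250 to 29508637) with 7.36%. SRSF10 (chromosome 1, 24290837 to 24306953) has 51.0% and is annotated a further time on an unplaced contig of chromosome 1, so its level is uncertain. The median over 23453 genes with several exons was 11.04%.

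Per kilobase of exon, SRSF1 and SRSF2 were the most abundant SR transcripts of the nuclear fraction, with mean levels of 141.7 and 118.2 CPM per kb. They ranked above 99.2% and 98.99% of the genes tested. In the cytosolic fraction the first place went to SRSF9 with 138.0 CPM per kb, followed by SRSF3 with 92.1, while SRSF1 and SRSF2 stood at 62.5 and 64.5. SRSF1 and SRSF2 led again at the native lamina, with 125.2 and 120.0 CPM per kb, and SRSF2 at the PFA lamina with 97.6. SRSF10 was lowest in each group on this scale, at 27.0 CPM per kb in the nuclear fraction when only its placed exons are counted as its length.

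Between the fractions the SR genes split in direction (edgeR quasi-likelihood test, Benjamini-Hochberg adjusted over all genes tested, called when the adjusted p was under 0.05). SRSF1, SRSF2, SRSF6, SRSF10 and SRSF11 were higher in the nuclear fraction, by 1.79 to 2.44-fold, and SRSF4 and SRSF9 were higher in the cytosolic fraction, by 2.09 and 3.90-fold. That is 5 of 10 higher in the nuclear fraction, where 26.1% of all genes tested were, and 2 of 10 lower, where 21.2% were. SRSF3, SRSF5 and SRSF7 did not pass. The median log2 fold change, nuclear minus cytosolic, was 0.74 over the 10 genes and 0.13 over all genes. Both nuclear libraries lay above both cytosolic ones for 6 SR genes, beside 42.5% of all genes, and below them for 3, beside 35.4%. A level here is a share of its library, so more of one transcript and less of the rest cannot be told apart, nor can a transcript in fewer cells and one at a lower level per cell.

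**Figure D1:**
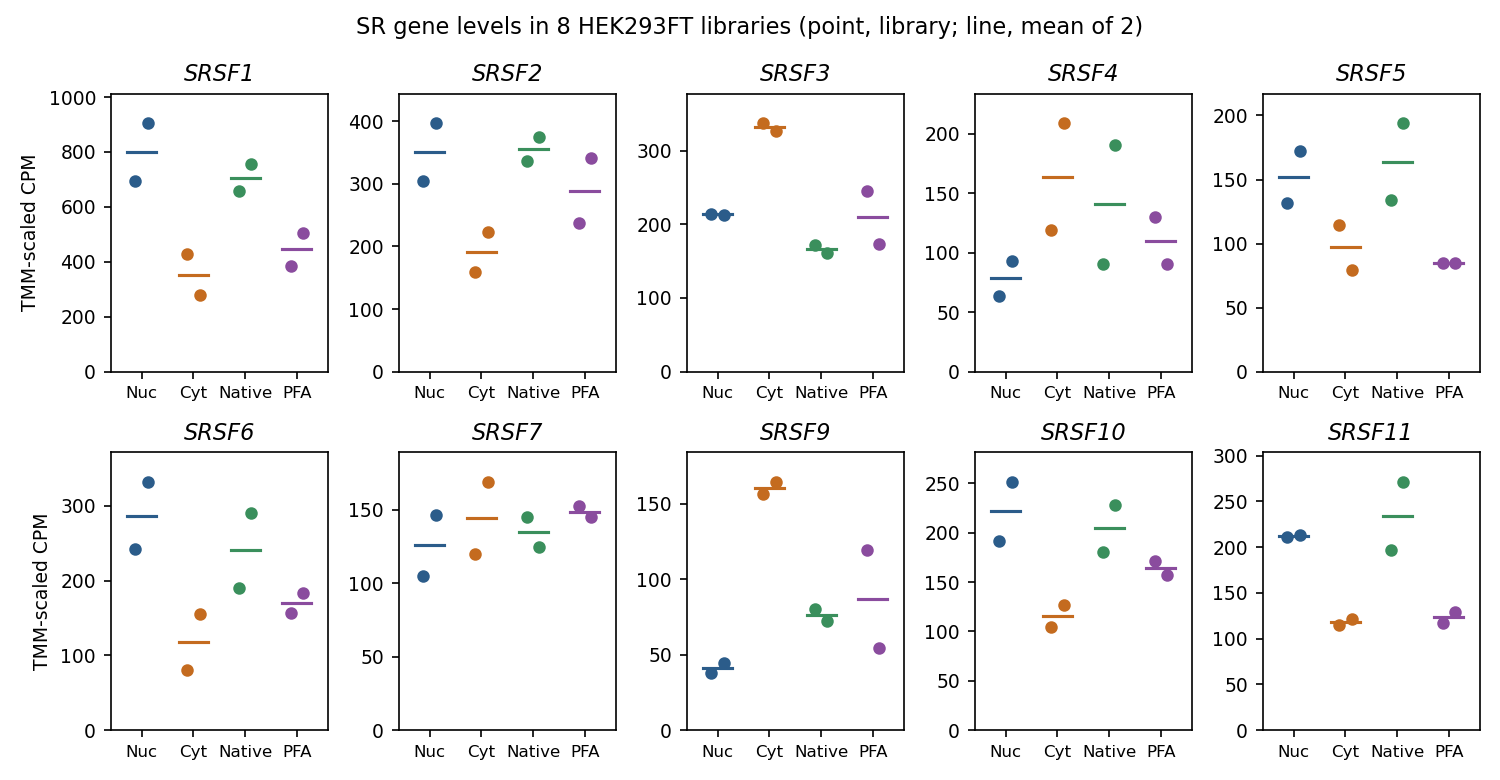
Level of each SR gene in CPM after TMM scaling (vertical axes from 0, one scale per gene) in the nuclear (Nuc), cytosolic (Cyt), native lamina (Native) and PFA lamina (PFA) groups. Points are libraries and lines the means of 2. SRSF9 sits between 38.0 and 44.3 in the nuclear and between 156 and 165 in the cytosolic libraries, and SRSF1 lies above 656 in the nuclear and native libraries and below 507 in the others.

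Among the SR proteins with a pair of RNA recognition motifs, SRSF1 is the classical splicing activator that also shuttles to the cytoplasm. Its transcript had 695 and 904 CPM in the nuclear, 428 and 278 in the cytosolic, 656 and 756 in the native lamina and 385 and 507 in the PFA lamina libraries. The nuclear and native libraries were all high and the cytosolic and PFA libraries all low, with no overlap between these pairs of groups. The nuclear mean of 799.8 ± 148 CPM was 2.27-fold the cytosolic mean of 353 ± 106 (SD, n = 2), a log2 fold change of 1.18 (edgeR adjusted p = 0.0116, SE 0.33). Without cytosolic replicate 2 it was 0.88 (adjusted p = 0.131), and without nuclear replicate 2 it was 0.96 (adjusted p = 0.0844), neither a call.

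SRSF6, an exonic enhancer binder of the same domain layout, had 242 and 332 CPM in the nuclear, 80.5 and 155 in the cytosolic, 189.6 and 291 in the native lamina and 157 and 184 in the PFA lamina libraries. Its order over the groups matched that of SRSF1, and the cytosolic libraries lay below the other 6. The log2 fold change between the fractions was 1.29 (edgeR adjusted p = 0.0110, SE 0.36), the largest nuclear difference of the 10 genes. The call was lost without cytosolic replicate 1, at 0.87 (adjusted p = 0.128), and without nuclear replicate 2, at 1.02 (adjusted p = 0.0843). SRSF5, related in sequence to SRSF6, had 132 and 172 CPM in the nuclear libraries and 115 and 79.7 in the cytosolic ones. The fractions did not overlap, and the log2 fold change of 0.64 (edgeR adjusted p = 0.0971, SE 0.30) was no call. With upper-quartile factors, which moved the median of all genes by 0.27, it was 0.90 (adjusted p = 0.0259).

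SRSF9, the shortest transcript model of the 10, encodes a small splicing factor close in sequence to SRSF1. It had 38.0 and 44.3 CPM in the nuclear, 156 and 165 in the cytosolic, 80.4 and 72.6 in the native lamina and 119.7 and 54.4 in the PFA lamina libraries. The groups other than PFA each kept to a narrow range, the nuclear libraries were the lowest of all 8 and the cytosolic ones the highest. Its log2 fold change, nuclear minus cytosolic, was -1.96 (edgeR adjusted p = 0.00123, SE 0.35), from means of 41.2 ± 4.49 and 160.5 ± 5.96 CPM (SD, n = 2). It was called in each of the 15 alternative fits, with values from -2.10 to -1.86 in those that leave out 1 library.

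SRSF4, the largest of the classical SR proteins, had 64.0 and 92.9 CPM in the nuclear, 119 and 209 in the cytosolic, 90.8 and 191 in the native lamina and 129.7 and 90.5 in the PFA lamina libraries. The nuclear libraries were below the cytosolic ones, and the native libraries spanned most of the range of the other groups. The log2 fold change between the fractions was -1.06 (edgeR adjusted p = 0.0402, SE 0.39). It was no longer called without cytosolic replicate 2 (-0.62, adjusted p = 0.310), without nuclear replicate 1 (-0.82, adjusted p = 0.242), without nuclear replicate 2 (-1.37, adjusted p = 0.0583), or with upper-quartile factors (-0.79, adjusted p = 0.100).

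SRSF2 is one of the SR proteins with a single RNA recognition motif. Its transcript had 304 and 397 CPM in the nuclear, 159.6 and 222 in the cytosolic, 336 and 375 in the native lamina and 237 and 341 in the PFA lamina libraries. The cytosolic libraries were the lowest of all 8, and the nuclear and native ranges overlapped. The log2 fold change between the fractions was 0.88 (edgeR adjusted p = 0.0352, SE 0.31). This call rested on each of the 4 libraries: it was 0.64 without cytosolic replicate 1, 1.11 without cytosolic replicate 2, 1.05 without nuclear replicate 1 and 0.65 without nuclear replicate 2, with adjusted p of 0.242, 0.0619, 0.0638 and 0.210.

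SRSF10, known as a splicing repressor when dephosphorylated, had 191.6 and 252 CPM in the nuclear, 104 and 127 in the cytosolic, 181 and 228 in the native lamina and 171 and 157 in the PFA lamina libraries. All 6 other libraries were above the cytosolic ones. Its log2 fold change between the fractions was 0.94 (edgeR adjusted p = 0.0169, SE 0.29), with 0.79 without cytosolic replicate 1 (adjusted p = 0.131), 1.07 without cytosolic replicate 2 (adjusted p = 0.0572) and 0.71 without nuclear replicate 2 (adjusted p = 0.140), none of them a call. SRSF11, an RS-domain protein that contacts splice-site factors, had 211 and 213 CPM in the nuclear, 115 and 121 in the cytosolic, 196.5 and 271 in the native lamina and 117 and 129.5 in the PFA lamina libraries. The nuclear and native libraries formed a high set and the cytosolic and PFA libraries a low one, with a gap from 129.5 to 196.5 CPM. The log2 fold change between the fractions was 0.84 (edgeR adjusted p = 0.0244, SE 0.28). It was lost without cytosolic replicate 1 (0.79, adjusted p = 0.126), cytosolic replicate 2 (0.86, adjusted p = 0.102), nuclear replicate 1 (0.85, adjusted p = 0.0970) or nuclear replicate 2 (0.82, adjusted p = 0.0971).

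SRSF3 and SRSF7, both adaptors that hand mRNA to the export receptor NXF1, were not called between the fractions. SRSF3 had 214.5 and 213 CPM in the nuclear, 337 and 326 in the cytosolic, 171.5 and 161 in the native lamina and 246 and 173 in the PFA lamina libraries. The cytosolic libraries were the highest of all 8 and the native ones the lowest. Its log2 fold change, nuclear minus cytosolic, was -0.63 (edgeR adjusted p = 0.0797, SE 0.28). The Wald test of DESeq2 called SRSF3 (-0.63, adjusted p = 0.0393). So did edgeR with only the 4 libraries compared (-0.65, adjusted p = 0.0427). It also became a call without PFA replicate 1 (-0.70) or PFA replicate 2 (-0.65). SRSF7 had 105 and 147 CPM in the nuclear, 120.2 and 169 in the cytosolic, 145 and 125 in the native lamina and 153 and 145 in the PFA lamina libraries. All its groups overlapped except the PFA and native lamina, whose nearest libraries were almost equal, and its log2 fold change of -0.20 (edgeR adjusted p = 0.593, SE 0.29) turned to 0.068 with upper-quartile factors. Over the whole set, upper-quartile factors called 6 genes higher and 1 lower in the nuclear fraction in place of 5 and 2. Over all genes they called 5248 higher and 2519 lower. Without nuclear replicate 2 only SRSF9 kept its call. Fewer SR genes were also called without cytosolic replicate 1, cytosolic replicate 2 or nuclear replicate 1. Each of these fits leaves 1 library in a group and called fewer of all genes too.

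Native lamina RNA was set against both fractions to see on which side its SR transcripts lay. No SR gene differed from the nuclear fraction by the edgeR test (0 of 10 higher or lower, beside 3.87% and 3.44% of all genes), while 2 had an unadjusted p under 0.05. DESeq2 also called 0. The log2 fold changes, native minus nuclear, ran from -0.36 (edgeR adjusted p = 0.418, SE 0.28) for SRSF3 to 0.89 (edgeR adjusted p = 0.105, SE 0.34) for SRSF9, with 0.84 (edgeR adjusted p = 0.174, SE 0.39) for SRSF4. For the 5 genes called higher in the nuclear than the cytosolic fraction they lay between -0.26 (SE 0.35) for SRSF6 and 0.14 (SE 0.27) for SRSF11. SRSF1, SRSF6 and SRSF10 were below 0 and turned to 0.12, 0.04 and 0.18 with total counts, which moved the median of all genes by 0.28. SRSF2 and SRSF11 turned to -0.12 and -0.0045 with upper-quartile factors, which moved that median by -0.15. With only the 4 libraries compared, edgeR called SRSF4 (0.93, adjusted p = 0.0384) and SRSF9 (0.97, adjusted p = 0.0104) higher at the native lamina. Without a filter it called SRSF9 (0.94, adjusted p = 0.0386). SRSF9 was called with total counts, at 1.18 (edgeR adjusted p = 0.0289), and also without PFA replicate 1 (0.92, adjusted p = 0.0171) or PFA replicate 2 (0.91, adjusted p = 0.0195).

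Against the cytosolic fraction 1 of 10 SR genes was higher at the native lamina, beside 6.99% of all genes, and 2 were lower, beside 6.77%. SRSF11 was 1.98-fold higher, with a log2 fold change of 0.98 (edgeR adjusted p = 0.0346, SE 0.28). SRSF3 and SRSF9 were lower, with -0.995 (edgeR adjusted p = 0.0356, SE 0.28) and -1.07 (edgeR adjusted p = 0.0497, SE 0.33). SRSF1, SRSF2, SRSF6 and SRSF10 had values of 1.00, 0.90, 1.03 and 0.82 with edgeR adjusted p from 0.0600 to 0.0711, and so missed the threshold. Both native libraries were above both cytosolic ones for 6 SR genes, beside 35.8% of all genes, and below them for 2, beside 28.4%. The median was 0.79 over the SR genes and 0.097 over all genes. This comparison and that of the fractions share the cytosolic libraries, so their values are not independent.

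These native calls depended on the setting. With total counts 5 SR genes were higher and 0 lower, beside 1646 and 581 of 16504 genes. That scaling moved the median of all genes by 0.29. SRSF3 and SRSF9 then had -0.70 (edgeR adjusted p = 0.112) and -0.77 (edgeR adjusted p = 0.106). With upper-quartile factors 5 were higher and SRSF3 alone lower, beside 1445 and 945 of all genes. SRSF9 then had -0.95 (edgeR adjusted p = 0.0581). The Wald test of DESeq2 called SRSF1, SRSF2, SRSF6 and SRSF10 higher as well, with adjusted p from 0.0092 to 0.0315. Over all genes it called 1377 higher and 1409 lower. The same SR genes were called by edgeR with only the 4 libraries compared, with adjusted p from 0.0335 to 0.0409. That fit called 1832 of 14948 genes higher and 1758 lower. Without PFA replicate 1 or PFA replicate 2 more SR genes were called, and more of all genes. Without any 1 nuclear, cytosolic or native library SRSF3 and SRSF9 lost their calls, and fewer of all genes were called. SRSF11 kept its call only without native replicate 1. Over these 6 fits SRSF11 ran from 0.73 to 1.20, SRSF3 from -1.045 to -0.955 and SRSF9 from -1.148 to -1.001.

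**Figure D2:**
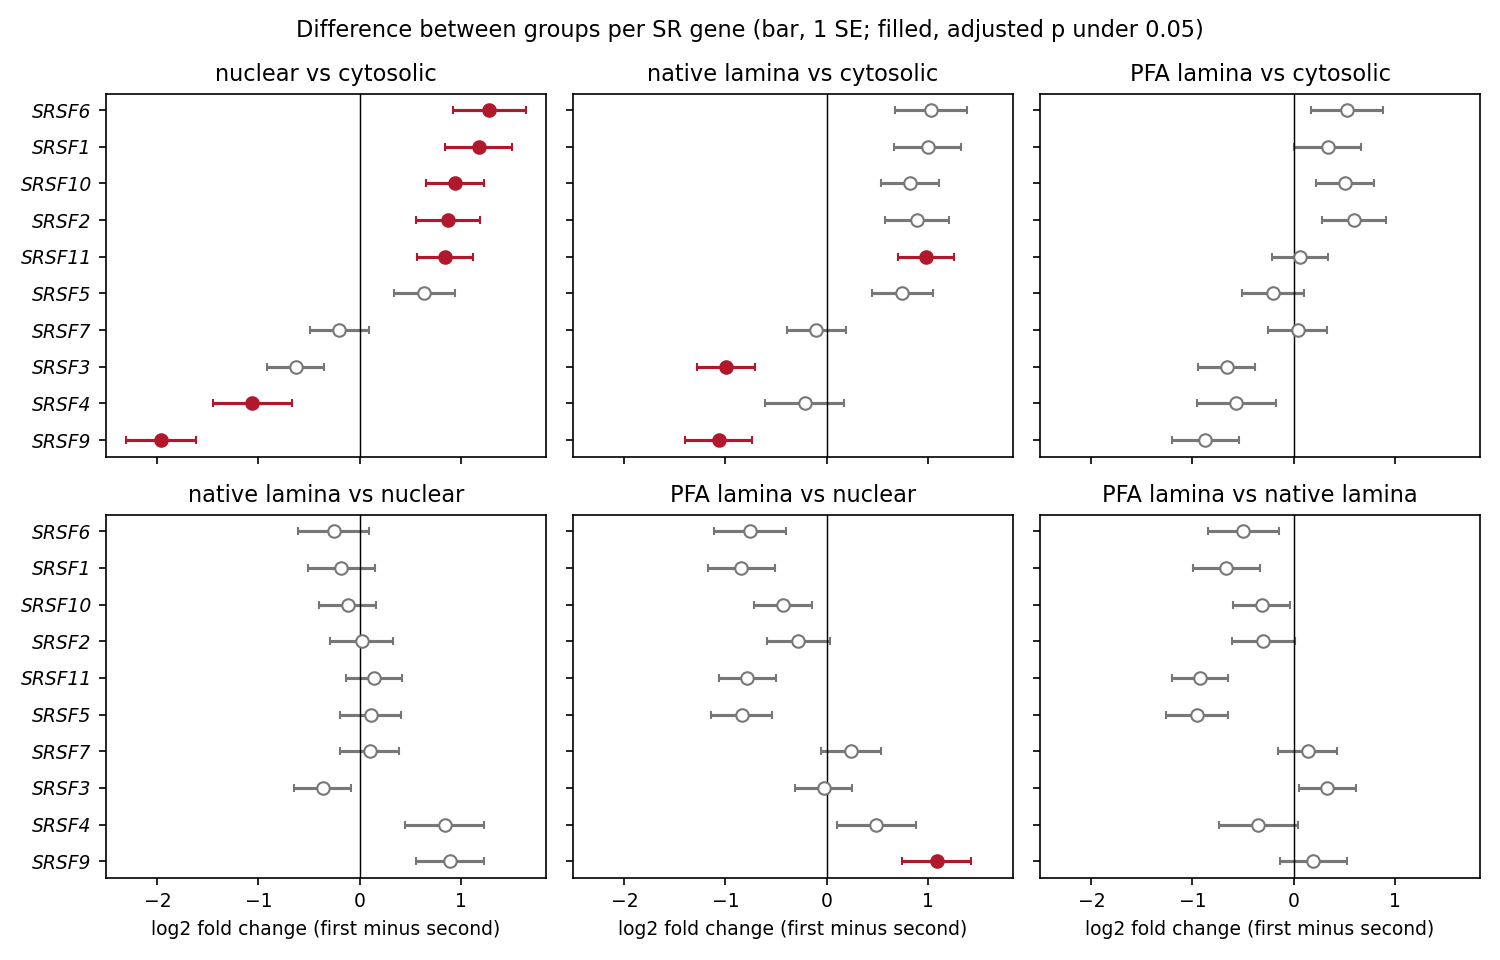
Log2 fold change (horizontal axis, first group minus second) of each SR gene in the 6 comparisons, with bars of 1 SE; filled red points have an edgeR adjusted p under 0.05. In the nuclear against cytosolic panel 7 points are filled, from -1.96 for SRSF9 to 1.29 for SRSF6, and in the native lamina against nuclear panel none is.

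At the PFA lamina SRSF9 was the only SR gene called against the nuclear fraction, 2.13-fold higher with a log2 fold change of 1.09 (edgeR adjusted p = 0.0429, SE 0.34). That is 1 of 10 higher, beside 9.63% of all genes, and 0 of 10 lower, beside 7.81%. The value followed PFA replicate 1, the library closest to the cytosolic ones, which had 119.7 CPM against 54.4 in replicate 2. It was 0.42 (adjusted p = 0.479) without PFA replicate 1 and 1.56 without PFA replicate 2. The call was also lost without nuclear replicate 1 (0.98), nuclear replicate 2 (1.22), cytosolic replicate 1 (1.10), cytosolic replicate 2 (1.10) or native replicate 1 (1.10), with adjusted p from 0.0507 to 0.253, and with upper-quartile factors (0.91, adjusted p = 0.0629) or only the 4 libraries compared (1.09, adjusted p = 0.112). SRSF1, SRSF5, SRSF6, SRSF10 and SRSF11 had both PFA libraries below both nuclear ones, which is 5 of 10 beside 32.2% of all genes, and SRSF9 alone lay above, beside 30% of all genes.

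Of those 5 genes none passed by the edgeR test of all 8 libraries. The Wald test of DESeq2 called SRSF1 (-0.88, adjusted p = 0.0224), SRSF5 (-0.88, adjusted p = 0.0329) and SRSF11 (-0.82, adjusted p = 0.0230) lower. It did not call SRSF6 or SRSF10. The values that follow are those of edgeR. SRSF5 had 84.8 and 84.6 CPM at the PFA lamina, nearly equal in both libraries, and a log2 fold change of -0.84 (edgeR adjusted p = 0.0713, SE 0.31). SRSF1 had -0.84 (edgeR adjusted p = 0.0906, SE 0.33), SRSF11 -0.78 (edgeR adjusted p = 0.0670, SE 0.28), SRSF6 -0.75 (edgeR adjusted p = 0.150, SE 0.36) and SRSF10 -0.43 (edgeR adjusted p = 0.296, SE 0.28). Upper-quartile factors, which moved the median of all genes by -0.16, called 0 higher and 2 lower, beside 1174 and 1604 of all genes. The 2 were SRSF5 at -0.99 (edgeR adjusted p = 0.0420) and SRSF11 at -0.94 (edgeR adjusted p = 0.0379). SRSF1 was called without PFA replicate 2, at -1.04 (adjusted p = 0.0457).

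No SR gene differed between the PFA lamina and the cytosolic fraction by the edgeR test. Over all genes 0.527% were higher and 0.145% lower. An unadjusted p under 0.05 was found for 2 SR genes. The low number of calls over all genes depended on the setting. The Wald test of DESeq2 called 0 SR genes, but 552 of 16504 genes higher and 430 lower. The smallest adjusted p was that of SRSF9, 0.159 at a log2 fold change of -0.87 (SE 0.34). Without PFA replicate 1, which leaves 1 PFA library, the log2 fold change of SRSF9 was -1.61, and more of all genes were called. SRSF2 had the largest positive value, 0.60 (edgeR adjusted p = 0.283, SE 0.31), and SRSF11 and SRSF7 lay near 0 at 0.060 (SE 0.28) and 0.042 (SE 0.29).

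The lamina preparations were compared to see what differed with fixation. Neither direction held a call by edgeR among the SR genes or among the 16504 genes that passed the filter (0% higher and 0% lower). An unadjusted p under 0.05 was found for 1821 genes, 2 of them SR genes. The absence of calls over all genes depended on the setting. Without a filter edgeR called 123 of 23649 genes higher and 149 lower, and the Wald test of DESeq2 called 73 of 16504 higher and 150 lower. Omitting PFA replicate 2, which leaves 1 PFA library, gave edgeR calls in both directions as well, none of them an SR gene. SRSF5 went from 164 ± 42.4 CPM at the native to 84.7 ± 0.146 at the PFA lamina (SD, n = 2), a log2 fold change of -0.95 (edgeR adjusted p = 0.323, SE 0.31). SRSF11 went from 234 ± 53.0 to 123 ± 8.72 CPM, or -0.92 (edgeR adjusted p = 0.316, SE 0.28), and was called by the Wald test of DESeq2 (-0.95, adjusted p = 0.0322). Both PFA libraries lay below both native ones for 5 SR genes (SRSF1, SRSF5, SRSF6, SRSF10 and SRSF11), beside 18.7% of all genes, and above them for 2 (SRSF3 and SRSF7), beside 19.9%. SRSF9 had 0.20 here and -0.51 without PFA replicate 1.

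Ordered by mean level over the 4 groups, SRSF1, SRSF6 and SRSF10 ran from nuclear through native lamina and PFA lamina to cytosolic, and SRSF2 and SRSF11 differed from that order only in having the native lamina first. SRSF9 ran from cytosolic through PFA and native lamina to nuclear. No pair of neighbours in these orders differed by the test for any SR gene. The smallest adjusted p between neighbours was 0.0670, between the nuclear fraction and the PFA lamina for SRSF11.

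Other genes of the pathway were taken from 3 lists. Of 18 genes of other RS-domain proteins, 3 had more RNA and 3 less in the nuclear than the cytosolic fraction, with a median log2 fold change of -0.29. Over all genes tested 26.1% were higher and 21.2% lower, and the median was 0.13. LUC7L3, a relative of a U1 snRNP factor, had the largest positive change, 2.40 (edgeR adjusted p = 6.90e-04, SE 0.35), and U2AF2, the large subunit that binds the polypyrimidine tract, the largest negative one, -1.58 (edgeR adjusted p = 0.00126, SE 0.28). Both were called in all 8 fits without 1 library. The others called, named after their values were seen, were SREK1 (1.17) and PNN (0.98) among the higher and SRSF8 (-1.32) and RNPS1 (-1.13) among the lower. SREK1 was lost without cytosolic replicate 1, RNPS1 without cytosolic replicate 2 or nuclear replicate 1, and PNN without any of the 4 libraries compared, with adjusted p of at most 0.0715, 0.106 and 0.224. Of 10 kinases and transport receptors, 4 were higher and 2 lower in the nuclear fraction, with a median of 0.29, beside 26.1%, 21.2% and 0.13 over all genes. The CLK kinases CLK1 and CLK4 and the export receptor NXF1, with log2 fold changes of 1.46, 1.08 and 2.20 and named after their values were seen, were higher. So was SRPK3, a kinase gene with only 82 and 44 counts in the nuclear libraries and 8 and 2 in the cytosolic ones, at 3.65 (edgeR adjusted p = 0.00418, SE 0.84). NXT1, the partner of NXF1, was lower at -1.44 (edgeR adjusted p = 0.0127, SE 0.41), which was lost without cytosolic replicate 2 or nuclear replicate 1 (largest adjusted p = 0.128), and SRPK1 was also lower at -0.87. CLK1 was lost without cytosolic replicate 1 or nuclear replicate 2 (1.03 to 2.00 over the 8 fits), SRPK1 without any of the 4 libraries compared (-1.05 to -0.72), and CLK4 in all fits but those without a PFA library (0.81 to 1.33). The 6 calls of this list became 3 without any of the 4 libraries compared.

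The hnRNP genes, whose proteins often oppose SR proteins at exons, had no member higher and 13 of 21 lower in the nuclear fraction, with a median of -1.21, beside 26.1%, 21.2% and 0.13 over all genes. HNRNPH2 had the largest change, -2.67 (edgeR adjusted p = 5.39e-04, SE 0.33), from 21.9 nuclear to 139.6 cytosolic CPM. The median of the SR genes was 0.74, and no test of the difference between the lists was made. Upper-quartile factors left 11 of the 21 hnRNP genes called, and leaving out 1 library between 7 (without nuclear replicate 1) and 14.

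**Figure D3:**
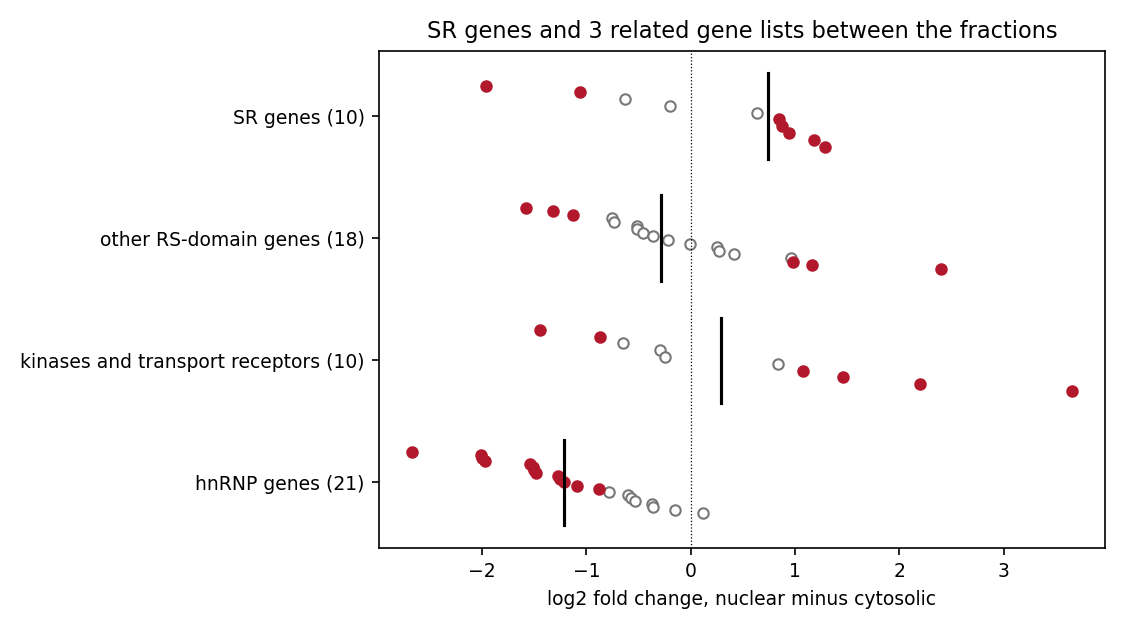
Log2 fold change, nuclear minus cytosolic (horizontal axis), of each gene in 4 groups of genes, one point per gene; filled red points have an edgeR adjusted p under 0.05 and black lines are medians. The SR genes have a median of 0.74 and the hnRNP genes one of -1.21, with 13 of 21 called lower.

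Between native lamina and nuclear RNA, where 3.87% of all genes were higher and 3.44% lower, 1 of the 18 RS-domain genes was higher, U2AF2 at 1.27 (edgeR adjusted p = 0.0233, SE 0.28), with 0 of 10 kinases and receptors and 3 of 21 hnRNP genes, led by HNRNPK at 1.43 (edgeR adjusted p = 0.0246, SE 0.32). None was lower. Both named calls were lost without either nuclear or either native replicate, where most calls over all genes were lost too. Their values ran from 1.11 to 1.70 over the fits without 1 library. Against the cytosolic fraction, where 6.99% of all genes were higher and 6.77% lower, 1 of the 18 RS-domain genes, LUC7L3, was higher at the native lamina, at 1.93 (edgeR adjusted p = 0.00714, SE 0.34), and 1, RNPS1, lower at -1.05 (edgeR adjusted p = 0.0335, SE 0.29). Of the hnRNP genes 2 were lower, led by HNRNPH2 at -1.26 (edgeR adjusted p = 0.0209, SE 0.31). LUC7L3 was no call without cytosolic replicate 1 or native replicate 2 (1.52 to 2.33 over the 8 fits). RNPS1 and HNRNPH2 were none without either cytosolic or either native replicate (-1.35 to -0.86). Fewer of all genes were called in each of these fits too. At the PFA lamina against the nuclear fraction U2AF2 (1.17) and NXT1 (1.83) were higher and LUC7L3 (-1.71) and SRPK3 (-2.54) lower in their lists, with 2 and 1 of 18 RS-domain genes and 1 and 1 of 10 kinases and receptors called. Of the 21 hnRNP genes 6 were higher, led by HNRNPH2 at 1.83. Over all genes 9.63% were higher and 7.81% lower. Without nuclear replicate 1, which leaves 1 nuclear library, nearly all calls over the whole table were lost, these 5 named ones among them. Without nuclear replicate 2 those of U2AF2, LUC7L3 and SRPK3 were lost, and without PFA replicate 1 those of U2AF2 and SRPK3. Most calls over all genes were lost in these fits too. That of SRPK3, which had 82 and 44 counts in the nuclear and 2 and 10 in the PFA libraries, held only without PFA replicate 2, and its value ran from -4.70 to -1.45 with 1 library left out. In the lists no gene was called between the PFA lamina and either the cytosolic fraction or the native lamina.

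The SR genes called higher in the nuclear fraction included the 4 with more than 50% of the gene span counted as exon: SRSF1, SRSF2, SRSF6 and SRSF10. SRSF3, SRSF5 and SRSF7, between 25% and 50%, were the 3 without a call by the edgeR test of all 8 libraries. Of the 3 under 25%, SRSF4 and SRSF9 were lower in the nuclear fraction and SRSF11 higher. Spearman's rho of the exonic share with the log2 fold change was 0.73 over the 10 genes, which share their libraries, and 0.017 across 15362 tested genes with several exons. Among those genes 28.7% of the 1198 above 50% were called higher in the nuclear fraction, 29.4% of the 2484 between 25% and 50%, 25.2% of the 4906 between 10% and 25% and 22.8% of the 6774 under 10%.

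**Figure D4:**
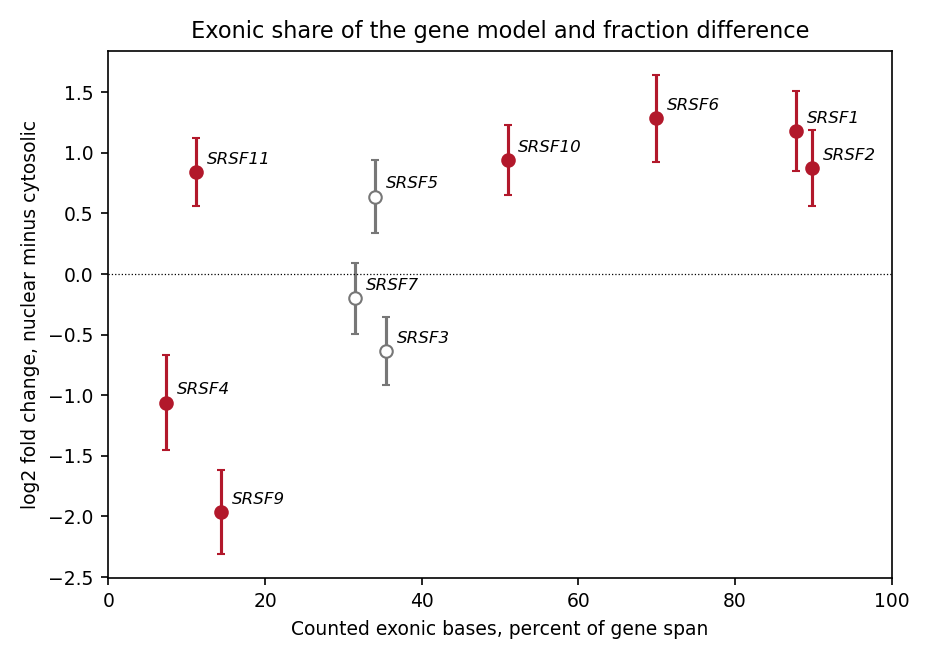
Share of each SR gene's span that is counted as exon (horizontal axis, percent) against its log2 fold change, nuclear minus cytosolic (vertical axis), with bars of 1 SE; filled red points have an edgeR adjusted p under 0.05. The 4 genes above 50% lie between 0.88 and 1.29, and SRSF9 and SRSF4, under 15%, lie at -1.96 and -1.06.

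The exons of 3 SR genes overlap those of another gene, and the counting ignored strand and counted a shared read for both genes, so these levels are uncertain. SRSF9 shares 495 of its 1163 exonic bases, or 42.6%, with GATC, a mitochondrial amidotransferase gene on the opposite strand. GATC had means of 87.4 nuclear and 155 cytosolic CPM, a log2 fold change of -0.83 (edgeR adjusted p = 0.0559, SE 0.33), in the same direction as SRSF9 but not called. SRSF5 shares 294 bases, or 17.5%, with LOC100289511 on the opposite strand, which had 22.0 and 15.1 CPM and was not called in any comparison. SRSF2 shares 293 bases, or 9.89%, with MFSD11 on the opposite strand and 15 bases, or 0.506%, with MIR636 on its own strand. MFSD11 was higher in the nuclear than the cytosolic fraction, at 0.93 (edgeR adjusted p = 0.0265, SE 0.31), and at the native lamina than in the cytosolic fraction, at 1.26 (edgeR adjusted p = 0.0217, SE 0.31). The counts assigned to MIR636 were higher in native lamina than cytosolic RNA, by 1.49 (edgeR adjusted p = 0.0274, SE 0.40). MIR636 was called in no other comparison. The part of SRSF2 transcripts in its counts was not tested. The part of these partners in the counts of SRSF2, SRSF5 and SRSF9 was not tested.

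Lamina-associated domains, the parts of the genome that touch the lamina, were given for HCT116, a colorectal carcinoma line, as 1 consensus list each for G1, S and G2. None of the 10 SR genes shared a base with a domain in any stage, where 10.3% of 27546 genes did. SRSF6 was the closest, with its span 0.0865 Mb from a domain in G1 and G2 and 0.187 Mb in S, followed by SRSF11 at 0.881 Mb in all 3. SRSF9 was 4.70 Mb away for G1, but 1.30 Mb for S and 0.900 Mb for G2, and SRSF3 went from 3.43 Mb in G1 to 12.4 Mb in S and G2. The median distance of the SR genes was 4.06 Mb for the G1 list, 3.89 Mb for S and 2.75 Mb for G2, beside 2.44, 3.21 and 2.16 Mb over 27482 genes. The lists carry no replicate spread, and the line differs from that of the RNA.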

How the data were processed

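RNA was measured in 8 HEK293FT libraries, 2 in each of 4 groups taken from the labels. The deposited values are read counts per gene symbol, made by the authors with featureCounts 1.5.2 on hg19 RefFlat models, per the file headers, with strand ignored and a read over several genes counted for each. TopHat2 2.1.1 and Bowtie2 2.3.2 are listed without a role in the submitters' processing notes. The header of cytosolic replicate 1 names nuclear replicate 1 as its output and cytosolic replicate 1 as its input, and the library was kept as labelled: the correlation of log2 CPM was 0.968 with the other cytosolic library and 0.790 with the library its output is named after. Totals of 2321291 to 8557777 counts per library set the precision. Without molecular identifiers, reads of one molecule cannot be set apart.

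The whole table was fitted with edgeR 4.0.16 under R 4.3.3 (filterByExpr by group, which left 16504 genes, TMM factors, quasi-likelihood test, 1 fit of all 8 libraries without a replicate block). The 6 contrasts were each adjusted by Benjamini-Hochberg over all genes tested, and the SE was derived from the F statistic. The script was tested on simulated data. CPM are counts divided by library size after TMM scaling. The alternatives were DESeq2 size factors, total counts, upper-quartile factors, no filter, DESeq2 1.42.0 with its Wald test, a replicate block, fits of the 4 libraries compared, and leaving out each library in turn. A group left with 1 library is then assumed to vary like the others.

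The deposited domain lists hold start and end positions on hg19 without scores, and how the authors combined replicates is not given in the sources used here. Distances were taken from gene spans on placed chromosomes. From each gene list the called genes with the largest positive and the largest negative log2 fold change were named, with any gene whose exons overlap those of an SR gene and the 5 genes with the most similar pattern. The 10 genes, the lists and the tests were chosen with earlier results of these data known. The K562 and H3K9me3 samples were not used here. The labels of the K562 samples contradict each other.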

Additional observations from a re-analysis of the deposited data

How the results depend on the processing

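Of 900 pairs of an SR gene's log2 fold change and an alternative, 766 kept direction and side of the threshold, 47 lost and 49 gained a call, and 38 reversed, none of them called in either fit. The cause was not tested. The number of SR genes called, 7 between the fractions, ran from 1 to 8 with 1 library left out. Native against nuclear gave 0, and 1 with total counts, 1 without a filter, 2 with only the 4 libraries compared and 0 to 1 with 1 library left out. Native against cytosolic gave 3, and 5 with total counts, 6 with upper-quartile factors, 5 without a filter, 7 with the Wald test of DESeq2, 7 with only the 4 libraries compared and 0 to 7 with 1 library left out. PFA against nuclear gave 1, and 2 with upper-quartile factors, 4 with the Wald test, 0 with only the 4 libraries compared and 0 to 2 with 1 library left out. PFA against cytosolic gave 0 and 0 to 1 with 1 library left out, and PFA against native 0 and 1 with the Wald test. No SR gene overlapped a domain, and 1, SRSF6, did with the span widened by 100 kb. Over all alternatives the calls of the 18 RS-domain genes, 10 kinases and receptors and 21 hnRNP genes ran from 4 to 9, 3 to 8 and 7 to 14 between the fractions (reported 6, 6 and 13). They ran from 0 to 6, 0 to 4 and 0 to 8 for native against nuclear (reported 1, 0 and 3), 0 to 6, 0 to 5 and 0 to 9 for native against cytosolic (reported 2, 0 and 2) and 0 to 4, 0 to 4 and 0 to 10 for PFA against nuclear (reported 3, 2 and 6). They reached 0, 1 and 11 for PFA against cytosolic and 2, 2 and 0 for PFA against native, from 0 in each list.

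Replicate numbers were not taken to pair the libraries: same-numbered deviations correlated at -0.0674 to 0.321, over 0.1 in 3 of 6 pairs of groups, and no label gives a shared origin. A replicate block gave 6 calls in place of 3 for native against cytosolic, with SRSF2, SRSF6 and SRSF10 added (adjusted p = 0.0342, 0.0219 and 0.0487), and 2 in place of 1 for PFA against nuclear, with SRSF11 added (adjusted p = 0.0497), and moved no other count of SR genes by over 1.5 times.

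Reversed values with another scaling, for native against nuclear, were 0.12 for SRSF1, 0.0414 for SRSF6 and 0.18 for SRSF10 with total counts, and -0.12 for SRSF2, -0.0289 for SRSF5, -0.0426 for SRSF7 and -0.0045 for SRSF11 with upper-quartile factors. For native against cytosolic, total counts gave 0.12 for SRSF4 and 0.22 for SRSF7, and upper-quartile factors 0.0249 for SRSF7. Upper-quartile factors gave 0.0675 for SRSF7 between the fractions, and total counts 0.12 for SRSF3 in PFA against nuclear. For SRSF7 in PFA against cytosolic DESeq2 size factors gave -0.00057 and the Wald test -0.00011. With 1 library left out, native against nuclear ran from -0.35 to 0.039 for SRSF1, -0.16 to 0.24 for SRSF2, -0.16 to 0.37 for SRSF5, -0.58 to 0.035 for SRSF6, -0.12 to 0.38 for SRSF7, -0.30 to 0.11 for SRSF10 and -0.094 to 0.37 for SRSF11. SRSF7 ran from -0.48 to 0.045 between the fractions, -0.33 to 0.16 in native against cytosolic and -0.19 to 0.30 in PFA against cytosolic. SRSF4 ran from -0.85 to 0.24 in native against cytosolic and -0.80 to 0.28 in PFA against native. SRSF3 ran from -0.29 to 0.22 in PFA against nuclear, SRSF5 from -0.45 to 0.077 and SRSF11 from -0.014 to 0.083 in PFA against cytosolic, and SRSF9 from -0.51 to 0.65 in PFA against native.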

Other observations

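Over the 8 libraries, the mean log2 CPM of the 10 SR genes, each centred on its own mean, was highest in native replicate 2 (0.34) and nuclear replicate 2 (0.24) and lowest in cytosolic replicate 1 (-0.22) and PFA replicate 2 (-0.20). The other nuclear library stood at -0.08 and the other cytosolic one at -0.03, so this mean did not separate the fractions. Of 10685 other genes tested with a mean of at least 10 CPM, the 5 whose pattern was most like it were TMF1 (Pearson's r 0.95), PIK3C2A (0.94), CHML (0.94), RBM33 (0.93) and LRRFIP1 (0.93). These values are a description over 8 libraries that share their depth and scaling.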
